A study of Mus musculus with 6 samples.

Results

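The 5 dopamine receptor genes of the mouse, Drd1, Drd2, Drd3, Drd4 and Drd5, were followed in messenger RNA from the nucleus accumbens core, the part of the ventral striatum that surrounds the anterior commissure and takes part in reward and motivated action. They were chosen by gene symbol, and their 6 transcripts were summed to 5 genes of the 24532 in the table, which holds 36780 transcripts. The 6 libraries came from wild-type male mice described as adolescent (postnatal days 35 to 55), 3 titled ethanol and 3 titled control. All of these mice are described as having gone through contextual fear conditioning, extinction trials and then 27 days of ethanol drinking on alternate days, and tissue was taken 24 h after the last of them. Binge-like exposure was given after conditioning as 6 intraperitoneal injections of 20% v/v ethanol within 6 h, 1.8 g/kg at first and 1.2 g/kg thereafter. The treatment field reads ethanol exposure in all 6 libraries, so the grouping rests on the titles, and what control mice were injected with is not stated. Whether each library is a different mouse is not stated, so the p-values cover only the spread among these libraries, which may be technical.

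Dopamine receptors are G protein-coupled receptors in 2 classes. The D1-like receptors, encoded by Drd1 and Drd5, couple to stimulatory G proteins and raise cyclic AMP, and the D2-like receptors, encoded by Drd2, Drd3 and Drd4, couple to inhibitory G proteins and lower it. In the striatum Drd1 marks medium spiny neurons of the direct pathway and Drd2 those of the indirect pathway. Drd2 is also made by cholinergic interneurons and, as an autoreceptor, by midbrain dopamine neurons.

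Libraries held 36197592 to 67399599 estimated reads in ethanol and 35898026 to 55672232 in control, and 3 reads stood for 0.045 to 0.084 CPM (read counts scaled to a common library size), a limit that covers counting error only. Control 2 lay far from the other libraries on the leading principal component (35.7% of the variance in log2 CPM) and had reads for 15924 genes, against 17096 to 17707 elsewhere. No marker common to D1 and D2 medium spiny neurons was at 0 in any library. The summed level of these markers was 2420 to 3431 CPM in ethanol and 1960 to 2313 CPM in control. Since these neurons occur across the striatum, their markers cannot check that the tissue was the core. Genes of cells from outside the accumbens differed among libraries. Slc17a7, the vesicular glutamate transporter gene of cortical neurons, stood at 24.7, 9.42 and 56.0 CPM in the ethanol libraries and at 289, 58.2 and 102 CPM in the control libraries. Th and Slc6a3, which encode the dopamine-synthesizing enzyme tyrosine hydroxylase and the dopamine transporter and are defining genes of midbrain dopamine neurons, had reads in every library. Slc6a3 stood at 160, 27.2 and 76.0 CPM in ethanol and at 130, 92.6 and 119 CPM in control, and Th at 121, 35.0 and 94.0 CPM in ethanol and at 119, 71.9 and 87.3 CPM in control.

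Drd1 has 2 transcripts in the table that differ in where they begin, and the sequences before both starts are shown because the estimated reads of this gene were split between them. On the minus strand of chromosome 13 (mm10), variant 1 begins at 54055658 and variant 2 at 54054780. By the GENCODE M21 exons, the first exon is 98 bases long (54055561 to 54055658) in variant 1 and 52 bases long (54054729 to 54054780) in variant 2, and both join a second exon that ends at 54054613. These exons add up to the lengths in the table, 3529 and 3482 bases. The first exons therefore make up 2.78% and 1.49% of the transcripts, the rest is shared but for 1 base at the far end, and the start of variant 2 lies in the intron of variant 1. The 250 bases before each start are from RefSeq (GRCm38.p6), 5′ to 3′ on the strand of the gene. Capitals mark the GC box GGGCGG on either strand, a motif bound by Sp1-family factors. The first window lies at chr13:54055659-54055908, the second at chr13:54054781-54055030, and the third, before the RefSeq start of Drd2 on the plus strand, at chr9:49340153-49340402. The Drd2 transcript of the table begins downstream of that start, at 49340662.
Drd1 variant 1: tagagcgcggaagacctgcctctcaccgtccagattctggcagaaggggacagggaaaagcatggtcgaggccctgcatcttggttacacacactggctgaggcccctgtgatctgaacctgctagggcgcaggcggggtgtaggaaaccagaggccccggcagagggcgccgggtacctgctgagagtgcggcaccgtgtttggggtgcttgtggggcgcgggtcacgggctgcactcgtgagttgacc
Drd1 variant 2: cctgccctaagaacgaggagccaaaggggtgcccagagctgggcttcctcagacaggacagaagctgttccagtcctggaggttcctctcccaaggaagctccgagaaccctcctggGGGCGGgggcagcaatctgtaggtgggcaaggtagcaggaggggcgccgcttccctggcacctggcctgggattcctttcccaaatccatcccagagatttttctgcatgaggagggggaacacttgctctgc
Drd2: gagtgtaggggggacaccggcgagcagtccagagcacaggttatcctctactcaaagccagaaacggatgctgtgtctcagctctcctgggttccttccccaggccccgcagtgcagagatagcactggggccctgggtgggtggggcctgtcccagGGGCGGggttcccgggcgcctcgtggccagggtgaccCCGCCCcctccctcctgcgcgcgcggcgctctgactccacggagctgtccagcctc

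The outer Drd1 window held 0 GC boxes, the inner one 1 and the Drd2 window 2, where 32.7% of 32851 such windows held at least 1. None of the 3 held TATAAA, the TATA box (12.4% of windows), TGACGTCA, the cyclic AMP response element (1.55%), or its half-site TGACG (17.8%, both strands, the full element's windows included). CpG dinucleotides numbered 15 before variant 1, 5 before variant 2 and 15 before Drd2, against a median of 6 over all windows. These are matches of letters only.

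Drd2 was the most abundant receptor gene per transcript length in every library and Drd1 the next. In FPKM, read fragments scaled to transcript length and library size as the authors deposited them, Drd2 stood at 27.0, 18.2 and 19.1 in the ethanol libraries and at 12.9, 14.1 and 11.4 in the control libraries. Drd1, summed over its transcripts, stood at 10.2, 13.2 and 10.6 FPKM in ethanol and at 9.05, 10.2 and 6.44 FPKM in control. Drd5 followed with 1.04 to 1.13 FPKM in ethanol and 0.864 to 1.79 FPKM in control, and Drd3 with 0.176 to 0.391 and 0.228 to 0.668 FPKM. Drd4 came last, with 0 to 0.118 FPKM in ethanol and 0 to 0.136 FPKM in control. The ranges of neighbours in this order did not overlap over the 6 libraries, except those of Drd2 and Drd1, whose order held within each library. These levels depend on the transcript models, since the table lists Drd2 as 1 transcript of 1549 bases and does not separate its long and short isoforms. Among all genes of a library, Drd2 had a higher FPKM than 77.8% to 89.5% and Drd1 than 69.3% to 80.8%.

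**Figure D1:**
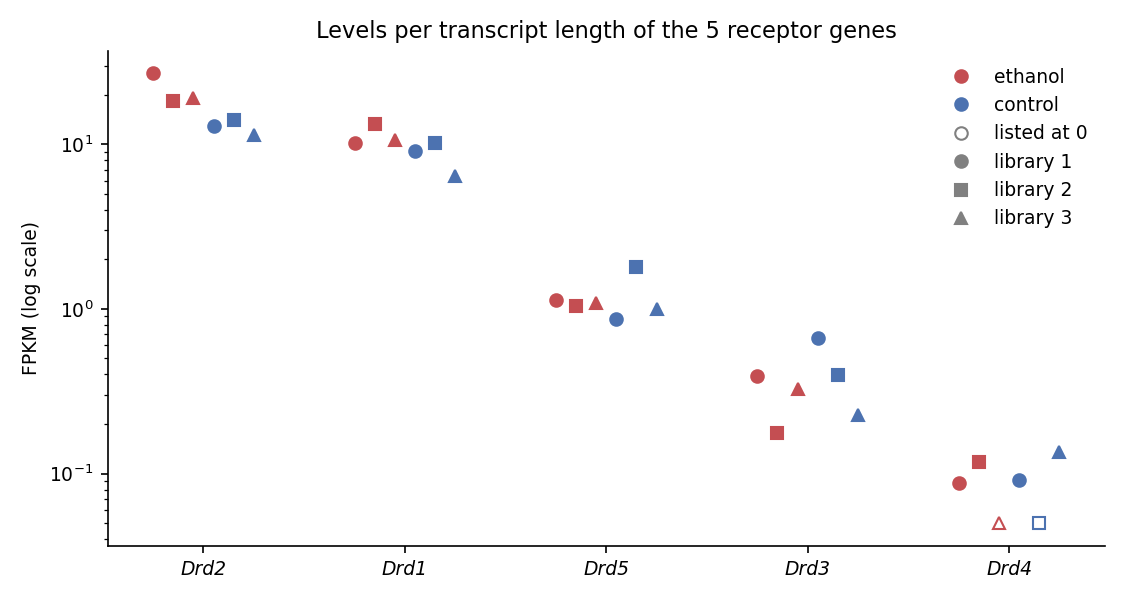
FPKM on a log axis of the 5 receptor genes, with ethanol libraries to the left of control libraries, marker shape giving the library number and open markers at the bottom standing for genes listed at 0. Drd2 and Drd1 lie at 6.44 FPKM or above in every library, Drd5 near 1 FPKM, and Drd4 is listed at 0 in ethanol 3 and control 2.

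The D1-like genes made up 36.8% ± 7.17 of the summed FPKM of the 5 receptor genes in ethanol and 42.1% ± 3.35 in control (SD, n = 3 each), with the rest in the D2-like genes. Ethanol 1 had the lowest D1-like share, 29.2%, and control 2 the highest, 45.4%. The sum itself stood at 38.8, 32.8 and 31.2 FPKM in the ethanol libraries and at 23.5, 26.5 and 19.2 FPKM in the control libraries. The ethanol libraries were thus all above the control libraries in the sum, while their shares overlapped.

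Of the 5 receptor genes, Drd1 and Drd2 stood higher in ethanol, Drd3 and Drd5 did not separate by group, and Drd4 was close to the detection limit. No receptor gene passed edgeR's quasi-likelihood test after Benjamini-Hochberg adjustment over the 15774 genes tested. In that test 0 genes were called higher and 0 lower (0% and 0%). An unadjusted p under 0.05 was reached by 838 genes with higher (5.31%) and 843 with lower (5.34%) levels in ethanol, 10.7% in all. Limma-voom called 0, DESeq2 called 51 higher (0.323%) and 93 lower (0.59%), and edgeR without ethanol 2 called 201 higher (1.26%) and 10 lower (0.0628%). Of the receptor genes, DESeq2 called Drd2, and edgeR without ethanol 2 called none. In CPM, the groups did not overlap for Drd1 and Drd2 of the 4 members tested, with ethanol above, as for 9.35% of all genes tested. Both also had an unadjusted p under 0.05. In bulk tissue, a larger share of the cells that carry a receptor and more of its RNA per cell cannot be told apart.

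Drd2, which encodes the inhibitory receptor of the indirect pathway, stood at 55.1, 35.8 and 35.6 CPM in ethanol 1, 2 and 3 and at 23.3, 25.3 and 20.9 CPM in control 1, 2 and 3. The lowest ethanol library lay above the highest control library, and ethanol 1 lay well above the other two. The means were 42.1 ± 11.2 CPM in ethanol and 23.2 ± 2.18 CPM in control (SD, n = 3 each). The log2 fold change was 0.86 (SE 0.21), a ratio of 1.82, with an adjusted p of 0.419 by edgeR's quasi-likelihood test. DESeq2 called it higher, with an adjusted p of 0.0333. Over the 12 alternatives the log2 fold change ranged from 0.62 without ethanol 1 to 0.97 without ethanol 3 and the adjusted p was 0.0333 to 0.933, with 0.0548 by edgeR without ethanol 2. The dopamine transporter gene Slc6a3 stood at 160, 27.2 and 76.0 CPM in ethanol 1, 2 and 3. It stood at 130, 92.6 and 119 CPM in control 1, 2 and 3. The part of dopamine neuron RNA in the Drd2 values was not tested. Drd2 (gene ID 13489) is listed on chromosome 9 from 49340662 to 49407214.

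Drd1, which encodes the stimulatory receptor of the direct pathway, stood at 47.2, 58.8 and 45.0 CPM in ethanol 1, 2 and 3 and at 37.2, 41.8 and 26.9 CPM in control 1, 2 and 3. The lowest ethanol library, ethanol 3, was just above the highest control library, control 2. The means were 50.3 ± 7.40 CPM in ethanol and 35.3 ± 7.64 CPM in control (SD, n = 3 each). This gave a log2 fold change of 0.51 (SE 0.20), a ratio of 1.43. The adjusted p was 0.448 by edgeR's quasi-likelihood test and 0.274 to 0.933 over its alternatives, in which the log2 fold change lay between 0.35 without control 3 and 0.65 without control 2. Drd1 (gene ID 13488) spans 54051183 to 54055658 on chromosome 13.

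**Figure D2:**
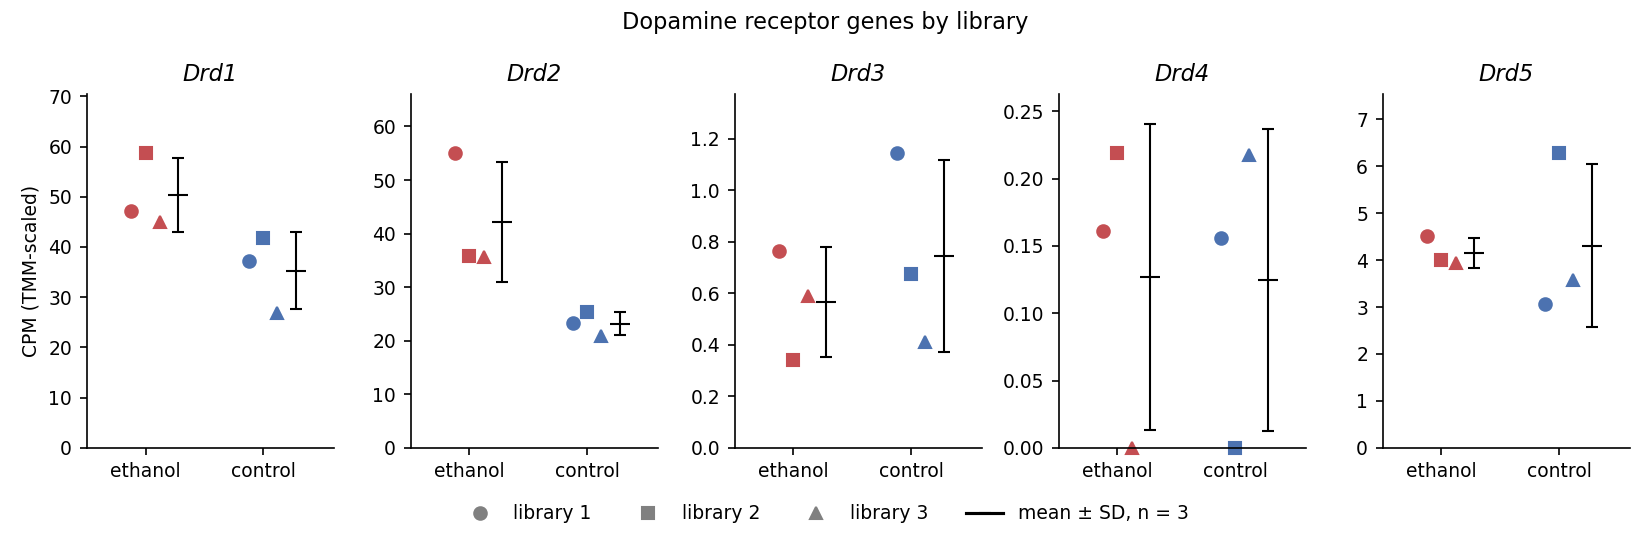
CPM of each receptor gene by library, with ethanol at the left of each panel, one marker per library and the mean with its SD (n = 3) as a line. The ethanol libraries lie at 35.6 CPM or more for Drd2, above all 3 control libraries, and the groups overlap for Drd3, Drd4 and Drd5.

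The excess of Drd1 in ethanol lay mostly in the estimated reads of variant 2. Variant 1 was given 1705, 1613 and 1243 reads in the ethanol libraries and 1503, 1474 and 983 reads in the control libraries. Variant 2 was given 1260, 802 and 434 reads in ethanol and 643, 134 and 0 reads in control. In transcripts tested without summing, variant 1 had a log2 fold change of 0.14 (SE 0.23, adjusted p = 0.928) and variant 2 one of 1.81 (SE 1.68, adjusted p = 0.853) by edgeR's quasi-likelihood test. Of 22527 transcripts tested, 0 (0%) passed, with 1475 (6.55%) at an unadjusted p under 0.05.

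Variant 2 took 42.8%, 33.5% and 26.1% of the Drd1 FPKM in ethanol 1, 2 and 3 and 30.2%, 8.39% and 0% in control 1, 2 and 3. The groups overlapped, since control 1 lay above ethanol 3. The shares averaged 34.2% ± 8.37 in ethanol and 12.9% ± 15.6 in control (SD, n = 3 each), with a p of 0.20 by a two-sided exact permutation test and 0.48 adjusted over 6 such tests. In a design of 3 against 3 this test cannot go below 0.10. The split rests on the short first exons, which begin where the printed windows end. Shifts of this size were common. Among 1780 genes with 2 transcripts and at least 500 reads in every library, 23.8% varied in their split by at least as many percentage points as Drd1 (42.8), and in 36.1% a transcript was at 0 in some library and not in another.

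**Figure D3:**
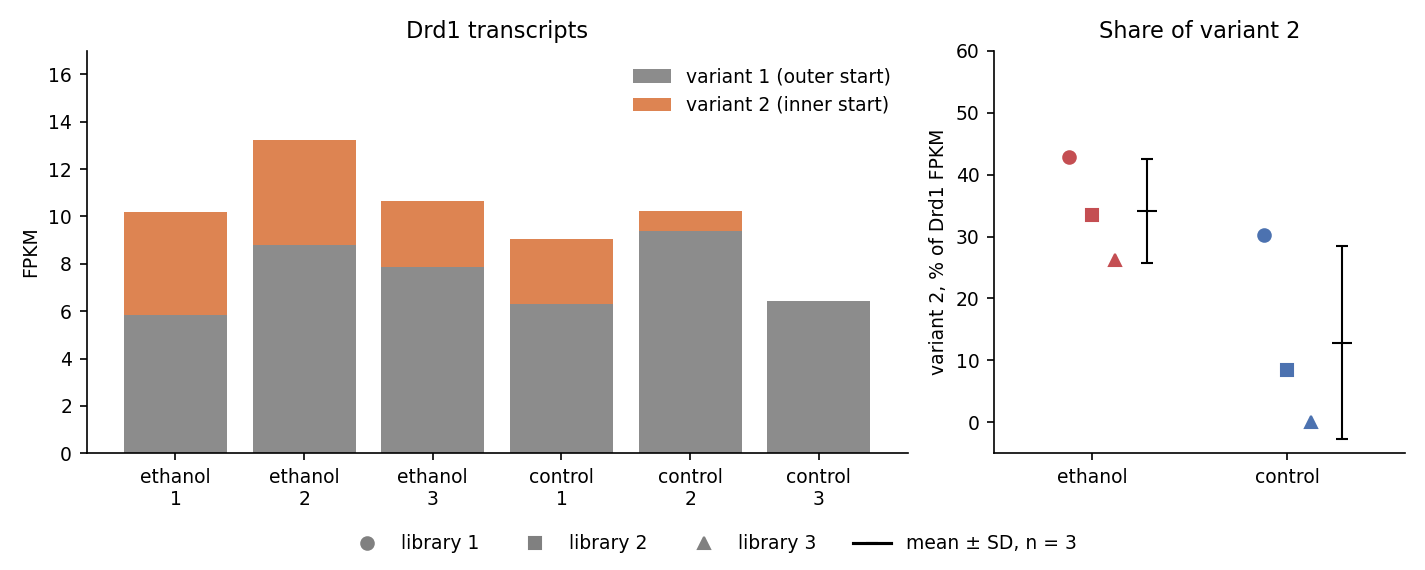
FPKM of the Drd1 transcripts as stacked bars for each library (left) and the share of variant 2 in percent with the mean and SD of 3 libraries (right), ethanol left of control. Variant 1 lies between 5.83 and 9.37 FPKM in all libraries, and variant 2 stands at 0 in control 3.

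Drd3, the D2-like receptor gene whose RNA is concentrated in ventral striatum, was low. It had 48, 14 and 22 reads in the ethanol libraries and 66, 26 and 15 in the control libraries, or 0.765, 0.341 and 0.590 CPM in ethanol and 1.15, 0.676 and 0.410 CPM in control. Control 1 was highest, ethanol 2 was lowest, and the groups overlapped. The log2 fold change was -0.40 (SE 0.59, adjusted p = 0.829 by edgeR's quasi-likelihood test), and it was 0.065 without control 1. With an SE of 0.59, which holds both counting error and spread between libraries, even a change as large as that of Drd2 would lie within 2 standard errors. Drd3 (gene ID 13490) is listed on chromosome 16 from 43762221 to 43822932.

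Drd5, the second D1-like receptor gene, known from cholinergic interneurons and cortical neurons, stood at 4.51, 3.99 and 3.94 CPM in the ethanol libraries and at 3.05, 6.29 and 3.58 CPM in the control libraries. The ethanol values lay close together, with an SD of 7.54% of the mean, and within the control range, whose SD was 40.3% of its mean through control 2. The log2 fold change was -0.051 (SE 0.31, adjusted p = 0.964 by edgeR's quasi-likelihood test) and 0.33 without control 2, the library that stood apart. Drd5 (gene ID 13492) is listed on chromosome 5 from 38319509 to 38322523.

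Drd4, a D2-like receptor gene best known from retina and frontal cortex, had 10, 9 and 0 reads in the ethanol libraries and 9, 0 and 8 in the control libraries. It was the 1 member that did not pass the filter on low counts. In a fit without that filter its log2 fold change was 0.038 (SE 1.44, adjusted p = 0.993 by edgeR's quasi-likelihood test), and the sign turned under 4 of 11 alternatives. With an SE of 1.44, even a change as large as that of Drd2 would not be detectable. Drd4 (gene ID 13491) is listed on chromosome 7 from 141292006 to 141295001.

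Whether Drd1 and Drd2 differed in how far they stood from control was tested on their ratio. The log2 ratio of Drd2 to Drd1, in FPKM, was 1.40, 0.46 and 0.84 in the ethanol libraries and 0.51, 0.46 and 0.83 in the control libraries. The groups overlapped, and ethanol 1 alone lay far from the others. The difference in means was 0.30 (p = 0.40, 0.48 adjusted over 6 tests, two-sided exact permutation test) and 0.055 without ethanol 1.

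Set against other genes of the same neurons, the receptor genes gave unequal pictures. Of 8 other D1 medium spiny neuron markers, none passed the test or an unadjusted p under 0.05, and 4 had positive and 4 negative log2 fold changes, with a median of 0.018 against 0.021 over all genes tested. The 3 with the smallest p were the mitochondrial serine transporter gene Sfxn1 at 0.12, the developmental regulator Eya1 at -0.25 and the dynorphin precursor gene Pdyn at 0.11. Eya1 was at -0.042 without ethanol 2 and at -0.086 without control 1, Pdyn was at -0.24 without ethanol 2 and at -0.080 without control 3, and the median of the list was -0.10 to 0.099 without single libraries. The log2 ratio of Drd1 to the summed CPM of these markers was -2.49, -2.80 and -2.60 in the ethanol libraries and -3.29, -2.89 and -3.20 in the control libraries. All 3 ethanol libraries were above the control libraries, and the difference in means of 0.49 had the smallest p the exact permutation test allows, 0.10 (0.48 adjusted over 6 tests, two-sided). This ratio was a later choice, made with the values known, and Drd1 in CPM already separated the groups. Much of the marker sum was Pdyn and Tac1. They stood at 109 and 115 of 364 CPM in control 1, which had the lowest ratio. In ethanol 2, the lowest ethanol library, they stood at 142 and 126 of 410 CPM. Control 3 also had a low ratio, with Pdyn at 65.6 and Tac1 at 55.4 CPM. Against the markers common to D1 and D2 neurons the groups overlapped, with a difference of 0.080 (p = 0.70, exact permutation test) that was -0.040 without control 3.

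Of 7 other D2 medium spiny neuron markers, 0 passed the edgeR test. An unadjusted p under 0.05 with higher values in ethanol was reached by 2 of them (5.31% of all genes tested). All 7 had positive log2 fold changes, as 52.7% of all genes tested did. Their median was 0.59. The orphan receptor gene Gpr6 had 0.77 (0.50 without ethanol 2), the kainate receptor subunit gene Grik3 0.63 (0.41 without ethanol 1), and the adenosine A2a receptor gene Adora2a 0.59 (0.20 without ethanol 2). Their summed CPM was dominated by ethanol 2, at 1730 CPM against 796 to 917 CPM in the other 5 libraries. Most of it in every library was Penk, at 1423 CPM in ethanol 2 and 533 to 726 CPM in the other 5. Gpr6, Adora2a and Sp9 were also highest in ethanol 2. Grik3, Gpr52 and Ptprm were lower there than in ethanol 1 and ethanol 3. The summed CPM is thus mainly a measure of Penk. The log2 ratio of Drd2 to that sum was -4.06, -5.60 and -4.48 in the ethanol libraries and -5.11, -5.18 and -5.30 in the control libraries. The groups overlapped through ethanol 2, which was the lowest of all (difference 0.49, p = 0.40, exact permutation test). It was 0.16 without ethanol 1 and 0.93 without ethanol 2. Against the shared markers the log2 ratio of Drd2 was -5.76, -6.58 and -6.09 in ethanol and -6.54, -6.52 and -6.55 in control. Again ethanol 2 lay below the control libraries, which lay within a narrow range (difference 0.39, p = 0.40, exact permutation test), and the difference was 0.20 without ethanol 1 and 0.61 without ethanol 2.

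**Figure D4:**
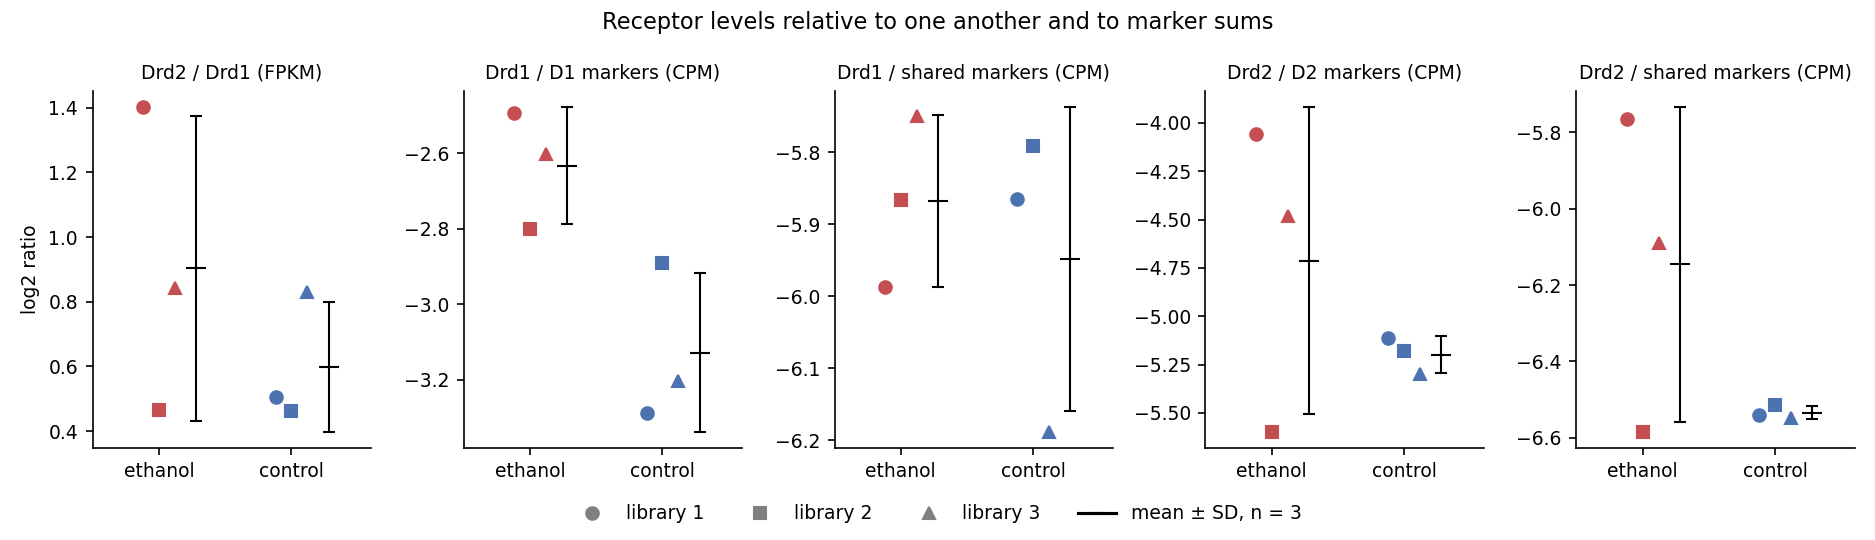
Log2 ratios by library of Drd2 to Drd1 (FPKM) and of Drd1 and Drd2 to marker sums (CPM), ethanol left of control, with the mean and SD of 3 libraries as lines. The groups separate only for Drd1 over the D1 markers, where ethanol lies between -2.80 and -2.49 and control between -3.29 and -2.89.

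Of 13 markers common to D1 and D2 neurons, 0 passed the edgeR test, 3 had an unadjusted p under 0.05 with higher values in ethanol (5.31% of all genes tested), and 12 had positive log2 fold changes (52.7% of all genes). The median was 0.33, and 0.16 without ethanol 2. The 3 were Rasd2, a small GTPase gene, at 0.73, Scn4b, a sodium channel subunit gene, at 0.73, and Adcy5, the main striatal adenylyl cyclase, at 0.72, and DESeq2 called all 3 higher, as it did 0.323% of all genes. Cholinergic interneurons, which carry Drd2 and Drd5, were represented by 6 genes, of which 0 passed. All 6 had positive log2 fold changes (52.7% of all genes), with a median of 0.40, which was -0.040 without ethanol 2. Chat, the gene of acetylcholine synthesis, stood at 14.4, 13.3 and 10.9 CPM in ethanol and at 5.68, 9.38 and 5.44 CPM in control. The groups did not overlap for Chat, with ethanol above, as for 9.35% of all genes tested. Its log2 fold change was 0.92 (SE 0.26, adjusted p = 0.419 by edgeR's quasi-likelihood test). Slc18a3, the vesicular acetylcholine transporter gene, had 0.57, which was -0.074 without ethanol 2 and 0.31 without control 1.

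**Figure D5:**
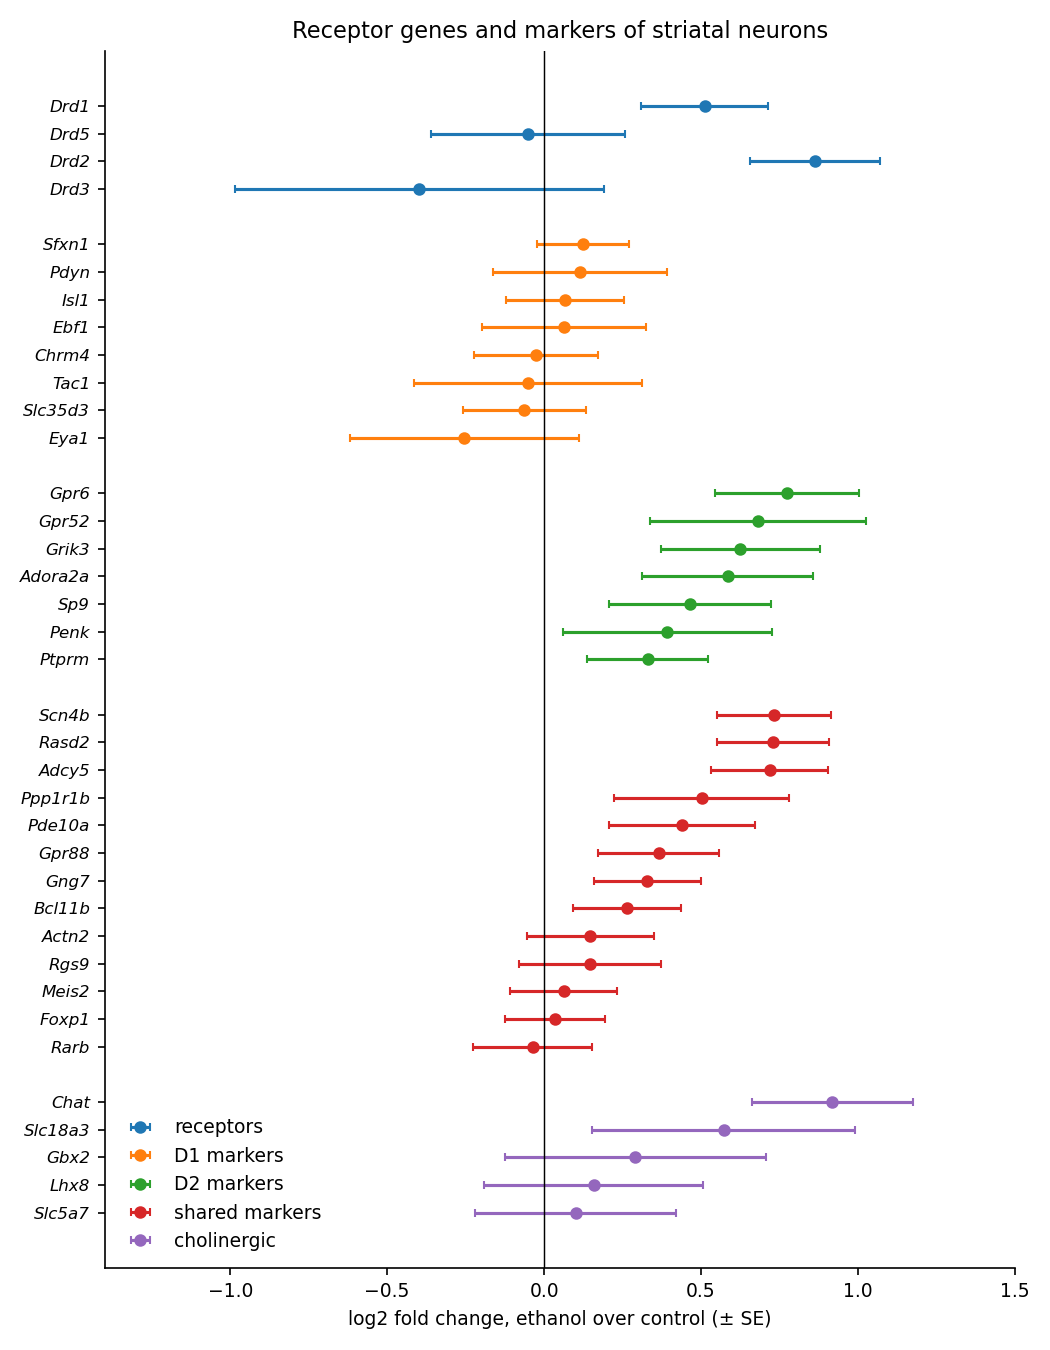
Log2 fold changes (ethanol over control) with standard errors of the 4 receptor genes tested and of the markers reported here of D1 neurons, D2 neurons, both kinds and cholinergic interneurons. Drd1 and Drd2 lie at 0.51 and 0.86, D1 markers lie around 0, and all 7 D2 markers lie above 0.

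Downstream of the receptors, no gene passed the edgeR test. Adcy5 and Gng7 stand in these lists and also among the markers common to D1 and D2 neurons. Over all genes tested, 52.7% had a positive log2 fold change, with a median of 0.021. For 9.35% of them the groups did not overlap, with ethanol above. The counts for these lists, and for those of receptor desensitization and of dopamine neurons, stand beside these shares. Of 15 genes of G proteins and their regulators, 12 had positive log2 fold changes, none had an unadjusted p under 0.05, and the median was 0.12. The smallest p belonged to the inhibitory alpha subunit gene Gnaz at 0.51 (0.25 without ethanol 1), the beta subunit gene Gnb5 at 0.33 and the striatal gamma subunit gene Gng7 at 0.33 (0.22 without ethanol 2). Of 13 effectors of the cyclic AMP pathway, 11 had positive log2 fold changes and 4 an unadjusted p under 0.05 (5.31% of all genes, higher), with a median of 0.37. Adcy5, whose product both receptor classes act on, stood at 465, 307 and 357 CPM in the ethanol libraries and at 227, 246 and 213 CPM in the control libraries. The groups did not overlap, and the adjusted p was 0.419 by edgeR's quasi-likelihood test, 0.0370 by DESeq2 and 0.0393 by edgeR without ethanol 2. Prkar1b, a regulatory subunit gene of protein kinase A, had 0.47 and Pde1b, a phosphodiesterase gene, 0.42 (0.26 without ethanol 2).

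Of 16 genes of receptor desensitization, trafficking and binding, 13 had positive log2 fold changes, with a median of 0.24 that was 0.13 without ethanol 1. Grk5, a kinase that phosphorylates active receptors, stood at 15.0, 12.9 and 16.1 CPM in ethanol and at 10.2, 9.98 and 10.5 CPM in control. Its groups did not overlap, with a log2 fold change of 0.52 (SE 0.18, adjusted p = 0.439 by edgeR's quasi-likelihood test). Arrb1, the beta-arrestin 1 gene, had 0.48 (0.22 without ethanol 1) and Gprasp1, a sorting protein gene, 0.44 (0.27 without ethanol 3). Of 10 genes of dopamine neurons and dopamine breakdown, 3 had positive and 7 negative log2 fold changes and 0 passed, and the median was -0.13, against 0.12 without ethanol 2 and 0.028 without control 1. Maob, a monoamine oxidase gene, had 0.51. Slc18a2, the vesicular monoamine transporter gene, stood at 21.7, 7.21 and 23.3 CPM in ethanol and at 32.9, 30.0 and 30.4 CPM in control, without overlap (ethanol below, as in 8.41% of genes). Its log2 fold change was -0.84 and -0.48 without ethanol 2, and that of Pitx3, a dopamine neuron transcription factor gene, was -0.74 and -0.36 without ethanol 2.

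Markers of other cells differed beside these values, and their part in the receptor values was not tested. None of these genes passed the edgeR test on all 6 libraries, and of all their markers only Kcnj13 and Folr1 of the choroid plexus were at 0 in any library. Without ethanol 2, edgeR called Slc1a3 and Pdgfra higher and Hapln2 lower, and DESeq2 on all 6 called Slc1a3 higher and Hapln2, Slc13a4 and Kcnj13 lower. The counts for these lists stand beside 5.31% of all genes tested with an unadjusted p under 0.05 and higher values in ethanol, 5.34% with lower values, 52.7% with a positive log2 fold change, and a median of 0.021.

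Cortical neurons, which surround the striatum and use glutamate, were represented by 8 genes, of which 3 had an unadjusted p under 0.05 with lower values in ethanol and 6 had negative log2 fold changes (median -0.39, and -0.12 without control 1). Their summed level was 414 to 639 CPM in ethanol and 461 to 682 CPM in control. The largest part of that sum in every library was Nrgn, the neurogranin gene, named here after its values were seen. It had 344, 602 and 304 CPM in ethanol and 313, 390 and 317 CPM in control and a log2 fold change of 0.29. Nrgn was highest in ethanol 2, where Slc17a7 was lowest at 9.42 CPM. How much of the Nrgn RNA came from cortical neurons was not tested, so the sum does not measure their share. Slc17a7, by contrast, did not overlap between the groups, with ethanol at most 56.0 CPM and control at least 58.2 CPM, as in 8.41% of genes with ethanol below. It had a log2 fold change of -2.32, and Neurod6 and Neurod2, transcription factor genes of these neurons, had -2.10 and -1.99, which were -1.42, -1.05 and -0.63 without control 1. The septum and basal forebrain lie beside the accumbens. Of their 6 genes 5 had positive log2 fold changes and 2 an unadjusted p under 0.05 (median 0.56, and 0.23 without ethanol 3). They summed to 68.8 to 175 CPM in ethanol and 88.6 to 148 CPM in control. The smallest p belonged to Gbx1 at 1.13, Trpc4 at 0.59 and Zic4 at 0.83, and without ethanol 3 Trpc4 was at 0.33 and Zic4 at 0.28.

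For each kind of glial marker the summed levels overlapped between the groups. Of 6 astrocyte genes 5 had positive log2 fold changes and 1 an unadjusted p under 0.05 (median 0.24, and 0.12 without ethanol 1), and they summed to 1839 to 2404 CPM in ethanol and 1616 to 1979 CPM in control. Slc1a3 and Slc1a2, the glutamate transporter genes, had 0.73 and 0.19, and Aldh1l1 had 0.37, with Slc1a2 at 0.13 without ethanol 3 and Aldh1l1 at 0.21 without ethanol 1. Of 6 oligodendrocyte genes 5 had negative log2 fold changes and 2 an unadjusted p under 0.05 (median -0.19), and they summed to 15291 to 19581 CPM in ethanol and 18467 to 21750 CPM in control. Hapln2 and Mobp, genes of the nodes between myelin segments and of myelin, had -0.70 and -0.29, and Mobp had -0.17 without ethanol 2. Of 4 genes of oligodendrocyte precursors 3 had positive log2 fold changes and 1 an unadjusted p under 0.05 (median 0.15, and 0.038 without ethanol 1), with sums of 447 to 600 CPM in ethanol and 477 to 498 CPM in control. Pdgfra had 0.59, Cspg4 0.18 and Olig1 0.13, and Cspg4 was 0.00011 without ethanol 1 and Olig1 -0.017 without ethanol 2. Microglia are the resident immune cells of the brain. Of their 5 genes 3 had positive log2 fold changes and 1 an unadjusted p under 0.05 (median 0.28, and 0.13 without ethanol 2), with sums of 217 to 272 CPM in ethanol and 193 to 235 CPM in control, and Csf1r had 0.41, Cx3cr1 0.28 and P2ry12 -0.36, the last -0.15 without ethanol 1.

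Of 5 endothelial genes 3 had positive log2 fold changes and 0 an unadjusted p under 0.05 (median 0.12, and -0.029 without ethanol 3), with sums of 147 to 152 CPM in ethanol and 135 to 166 CPM in control, and Ly6c1 had -0.24, Tek 0.17 and Pecam1 0.18. Without single libraries Ly6c1 ranged from -0.39 to -0.14, Tek from 0.095 to 0.24 and Pecam1 from 0.059 to 0.39. Meningeal fibroblasts, from the membranes around the brain, were represented by 5 genes, all with negative log2 fold changes and 2 with an unadjusted p under 0.05 (median -0.50). They summed to 13.0 to 14.5 CPM in ethanol and 16.6 to 28.6 CPM in control, without overlap, and Slc13a4 had -1.58, Slc22a6 -1.19 and Col1a1 -0.50, the last -0.32 without ethanol 2. The choroid plexus, which makes cerebrospinal fluid, was represented by 4 genes, 3 with negative log2 fold changes and 2 with an unadjusted p under 0.05 (median -2.44, and -0.56 without control 3). Control 3 stood apart, with 394 CPM of the transthyretin gene Ttr, against 0.733 to 4.63 CPM in the other 5 libraries. Kcnj13 had 0 reads in ethanol 2 and ethanol 3 and Folr1 0 reads in control 2, and the log2 fold change of Folr1 was 0.17, ranging from -0.40 to 4.17 without single libraries.

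The genes closest in pattern to each receptor gene were found by the root mean square difference of log2 CPM over the 6 libraries, each gene centred on its own mean. For Drd1 they were Wfs1 (0.042), Tusc3 (0.088), Matn2 (0.11), Plppr1 (0.11) and Pnma1 (0.12), of 12650 genes compared, where the SD of Drd1 itself was 0.38. For Drd2, with an SD of 0.52, they were Tspyl4 (0.085), Taco1 (0.086), Pygb (0.086), Vat1l (0.10) and Egr3 (0.10). Cd274 (0.093), Hk2 (0.11), Olfml2b (0.11), Stc1 (0.12) and Acta2 (0.12) were nearest to Drd5. The nearest to Drd3 were farther off, at 0.19 for Slc30a3, 0.23 for St3gal1 and Adamts9 and 0.24 for Gfpt2, where its few reads add counting error. All these genes share the same 6 libraries and were picked for likeness, so their group differences carry no added weight.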

How the data were processed

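The authors deposited 1 table with a row per RefSeq transcript and, per the file headers, a read count and an FPKM value for each sample. The submitters' processing notes list the genome build mm10 and the tool bcl2fastq. Aligner and counter were not given in the sources used here, nor their settings. The deposited counts are estimated counts, since each count up to 100 equalled FPKM times length times library size rounded up (100% in every library, within 0.05 reads, against 53.5% to 54.6% for rounding to the nearest), so reads of isoforms and near-identical genes may be divided wrongly. Whether counting used strand is not stated.

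Counts were summed by gene identifier (10 identifiers had more than 1 symbol), a departure from counts as deposited that the members' definition required. Genes were filtered with filterByExpr (minimum count 10), scaled with TMM, and tested with edgeR 4.0.16 (glmQLFit, glmQLFTest, group only, two-sided) in R 4.3.3, with Benjamini-Hochberg adjustment over all 15774 genes and a threshold of 0.05. SE is the log2 fold change over the square root of F. The biological coefficient of variation was 0.252. Receptor levels between genes used the deposited FPKM. Alternatives were DESeq2 1.42.0, limma 3.58.1 (voom), other scalings, no filter, a replicate block and fits without each sample. Ratios to D1 and D2 markers and the test of the variant 2 share were added after the data had been seen. Named genes were the members, the 3 genes of each list with the smallest p and the 5 genes nearest each tested member in pattern (mean log2 CPM at least 1), and some genes that met this rule are not reported here. Nrgn, Penk, Sp9, Gpr52, Ptprm and Tac1 were named for their values. The members and lists were chosen with earlier results of these data known. Windows before RefSeq starts were found by symbol for 5 of 5 members, but for Drd2 and Drd4 that start was not the transcript start in the table. No 2 libraries agreed within sampling noise (chi-square per degree of freedom at least 33.6). Plots used matplotlib 3.10.9 (Python 3.11.15).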

Additional observations from a re-analysis of the deposited data

How the results depend on the processing

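Drd1 and Drd2 had positive log2 fold changes under all 12 alternatives, and Drd2 alone of the members was called, by DESeq2 (0.86). DESeq2 called 51 genes higher and 93 lower. Leaving out single libraries gave 0 to 201 genes higher and 0 to 10 lower, the most without ethanol 2, and 1 higher without control 1, where edgeR otherwise called 0. Without single libraries the log2 fold changes ranged from -0.69 to 0.065 for Drd3, from -0.54 to 0.63 for Drd4 and from -0.25 to 0.33 for Drd5, and those of Pdyn from -0.24 to 0.27, Slc18a3 from -0.074 to 0.86, Olig1 from -0.017 to 0.29 and Folr1 from -0.40 to 4.17. The log2 ratio of Drd1 to shared medium spiny neuron markers ranged from -0.040 to 0.16. With library totals only Drd4 was at -0.085, and with limma-voom Drd5 was at 0.057. With the replicate block Drd5 was at 0.017, Drd1 at 0.53 (adjusted p = 0.396) and Drd2 at 0.84 (adjusted p = 0.262), both by edgeR, and no gene was called. Deviations from the group means had correlations of 0.15, -0.031 and -0.017 between libraries of the same number. Over all pairs of an ethanol and a control library they ranged from -0.22 to 0.19. So few values cannot settle whether the numbers pair the libraries. For these reversals the cause was not tested. Of the members, Drd3 and Drd4 had the fewest reads, at most 66 and 10 in a library.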
